A study of Mus musculus with 6 samples.

Results

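The GDNF family consists of small secreted survival and guidance factors, the membrane-anchored co-receptors that bind them and the receptor tyrosine kinase that the co-receptors engage. The 7 genes described here are the ligand genes Gdnf, Nrtn and Artn, the co-receptor genes Gfra1, Gfra2 and Gfra3, and Ret. They were taken by gene symbol, as every probe set to which the platform annotation gives exactly 1 symbol that belongs to the group, and this gave 14 of the 45101 probe sets of the array, for 7 of the 18194 genes named by a single symbol. The probe sets were measured in the stellate ganglia of 2 groups of male C57/Bl6 mice, studied 8 weeks after surgery. In 3 mice the aorta had been narrowed by transverse aortic constriction (TAC), which loads the heart with pressure, and 3 mice had a sham operation. Both ganglia of an animal gave the RNA of 1 Affymetrix mouse genome array, and the arrays carry the letters A, B and C in each group. No genetic change or drug is named for either group. The comparison asks how gene expression in the sympathetic ganglia that supply the heart differs under lasting pressure overload.

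Each ligand of the family has a preferred partner: GDNF binds GFRalpha1, neurturin (Nrtn) binds GFRalpha2 and artemin (Artn) binds GFRalpha3. The pair of ligand and co-receptor brings Ret molecules together, and the activated kinase signals through docking proteins to the phosphoinositide 3-kinase and MAP kinase pathways. In the sympathetic nervous system, artemin made by blood vessels and other targets guides growing sympathetic axons through Gfra3 and Ret, and Ret with Gfra2 is known from neurons that take on a cholinergic transmitter phenotype.

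The 6 arrays had pairwise correlations of 0.98 to 0.99 over the 17550 probe sets that were tested, which are those with a mean log2 intensity of at least 4 over all arrays. The labelled tissue was checked by its markers: 11 of 12 listed markers of sympathetic neurons had a probe set with 1 symbol, all 11 were tested, and their mean log2 intensity was 12.88 on each TAC array and 12.80 to 12.86 on the sham arrays. Transcripts of neighbouring tissue varied between arrays. The mean of 5 tested fat markers was highest on TAC B at 8.42 and sham C at 9.59, against 6.49 to 7.12 on the other arrays. The mean of 4 tested skeletal muscle markers was 3.64 to 5.73 on the TAC arrays and 3.39 to 7.71 on the sham arrays. TAC B also had the lowest glial marker mean. The 7 tested markers of satellite glia and Schwann cells averaged 8.99 there and 9.26 to 9.45 on the other 5 arrays. Of these markers, S100b, Fabp7, Kcnj10 and Foxd3 were lowest on TAC B. Sox10 and Erbb3 measured 9.491 and 9.454 on TAC B and were lower on sham A, at 9.368 and 9.402. Cdh19 went the other way, at 11.21 on TAC B, exceeded by TAC A alone at 11.35.

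The ligand genes, each read by a single probe set, were under the floor in the ganglia. Ret, Gfra1, Gfra2 and Gfra3 were measured by at least 1 probe set, and none of the measured probe sets passed the test of TAC against sham. Of the 14 member probe sets 7 were tested, for 4 genes, and the other 7 were dim, with a mean log2 intensity under 4. limma called 0 of the 7 tested probe sets at an adjusted p under 0.05, as it called 0 of all 17550 (0.0%). At an unadjusted p under 0.05 there was 1 member, the brightest Gfra2 probe set, which was lower in TAC, against 9.08% of all tested probe sets in either direction and 3.05% lower in TAC. It was also the 1 tested member whose groups did not overlap, against 17.9% of all tested probe sets in either direction and 8.85% with TAC lower. Means were lower in TAC for 5 of the 7 tested probe sets, with a median log2 difference of -0.22, where all tested probe sets had a median of 0.026 and 43.9% were lower. Several probe sets read the same gene, so these are not independent measurements. Each array stands for 1 animal, and the p-values set each difference against the spread between arrays. limma draws that spread partly from all tested probe sets.

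**Figure D1:**
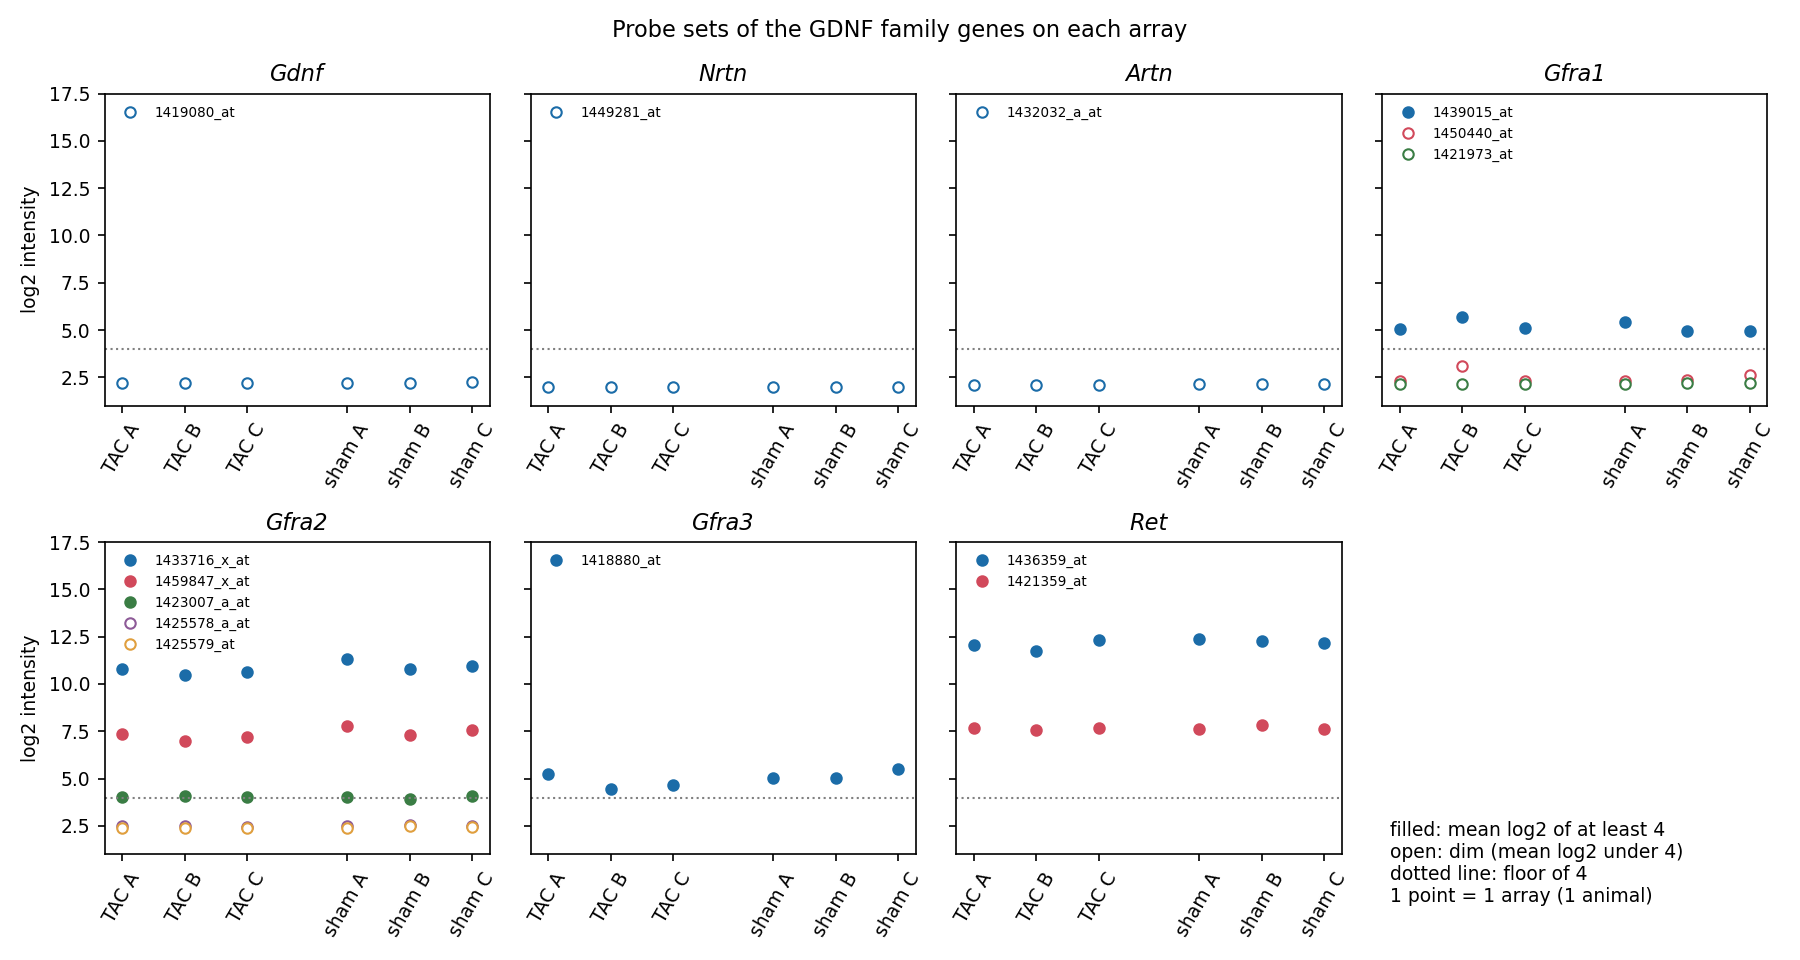
Log2 intensity of the 14 probe sets of the 7 genes on each array, 1 panel a gene, TAC arrays left of sham arrays. Each point is 1 array, filled for probe sets with a mean log2 of at least 4 and open for dim ones, and the dotted line is that floor. The ligand genes lie at 1.99 to 2.23 on every array, Ret at 11.75 to 12.39 by its brighter probe set, and the probe sets of Gfra1 and Gfra2 split between measured and dim.

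The ligand genes, each read by a single probe set, gave values at the bottom of the scale. Gfra1 and Gfra2 had dim probe sets beside measured ones, so a dim value alone does not show that a ligand transcript is absent. Gdnf, the ligand for which the family is named, measured 2.18, 2.19 and 2.19 on the log2 scale on TAC A, B and C and 2.20, 2.23 and 2.23 on sham A, B and C. Nrtn measured 1.99 on each TAC array and 2.00, 2.02 and 2.01 on the sham arrays. Artn measured 2.12, 2.12 and 2.11 on the TAC arrays and 2.13, 2.15 and 2.16 on the sham arrays. All of these lie below the lower quartile of their own array, which was 2.43 on each TAC array and 2.45 to 2.49 on the sham arrays.

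In all 3 ligand genes every TAC array lay below every sham array, by log2 differences of -0.037 for Gdnf, -0.021 for Nrtn and -0.031 for Artn. Dim probe sets as a whole did the same: 71.6% of the 27487 had each TAC array below each sham array, 87.0% had a lower TAC mean, and their median difference was -0.041. Of the 7 dim member probe sets 6 had groups that did not overlap, all of them lower in TAC. Since most dim probe sets on these arrays did so, nothing is read from this about the ligands. The arrays read ganglion RNA only, not the heart or the vessels that the nerves grow to.

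Ret, the signalling receptor, was bright. Its brighter probe set, 1436359_at, measured 12.07, 11.75 and 12.33 on TAC A, B and C and 12.39, 12.25 and 12.16 on sham A, B and C. The groups overlapped, since TAC C lay between sham A and sham B. The means were 12.05 ± 0.29 in TAC and 12.27 ± 0.12 in sham (SD, n = 3 each). The log2 difference was -0.22 (SE 0.16), with a 95% interval from -0.60 to 0.16 and a limma adjusted p of 0.657. The interval holds both 0 and a clearly lower level in TAC. The difference was -0.071 without TAC B and -0.36 without TAC C.

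The second Ret probe set, 1421359_at, held a narrower range and showed still less difference. It measured 7.66, 7.56 and 7.68 on the TAC arrays and 7.63, 7.85 and 7.61 on the sham arrays. Its log2 difference was -0.064 (SE 0.094), with a 95% interval from -0.29 to 0.16 and a limma adjusted p of 0.824. The direction turned to 0.012 without sham B. Both Ret probe sets were lowest on TAC B. After each was centred on its own mean, they differed by 0.19 (root mean square, log2) over the 6 arrays. Of the other tested probe sets, 15.7% lay closer to 1436359_at than its own partner did. The distance also reflects the smaller SD of 1421359_at, 0.098 against 0.23, so it does not show whether the 2 varied together.

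Gfra2 encodes the preferred co-receptor of neurturin, and its 5 probe sets lay at different levels. The brightest, 1433716_x_at, measured 10.79, 10.48 and 10.61 on TAC A, B and C and 11.32, 10.80 and 10.94 on sham A, B and C. Every TAC array lay below every sham array, and the margin was small, since on the linear scale TAC A was at 1770 and sham B at 1784. The means were 10.63 ± 0.16 in TAC and 11.02 ± 0.27 in sham (SD, n = 3 each), or 1.32-fold lower in TAC. The log2 difference of -0.40 (SE 0.16) had a 95% interval from -0.77 to -0.018, and it did not pass over all probe sets (unadjusted p = 0.0426, limma adjusted p = 0.546). An exact permutation test of this probe set alone gave p = 0.1, the smallest that 3 arrays against 3 can give. Without sham A, the highest array, the difference was -0.25.

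A second Gfra2 probe set, 1459847_x_at, followed the first closely. It measured 7.35, 7.01 and 7.22 on the TAC arrays and 7.78, 7.30 and 7.56 on the sham arrays, so that the groups overlapped only through TAC A and sham B. Its log2 difference was -0.36 (SE 0.15), with a 95% interval from -0.72 to 0.0053, an unadjusted p of 0.0525 and a limma adjusted p of 0.549. After centring, it differed from 1433716_x_at by 0.055 (root mean square, log2), and only 3 of the 17549 other tested probe sets lay closer. The 2 probe sets were highest on sham A and lowest on TAC B alike.

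The other 3 Gfra2 probe sets were at or under the floor. Probe set 1423007_a_at lay just inside the floor, at 4.05, 4.07 and 4.03 on the TAC arrays and 4.03, 3.94 and 4.06 on the sham arrays, with a log2 difference of 0.038 (SE 0.073, limma adjusted p = 0.872). After centring, it differed from 1433716_x_at by 0.28 (root mean square, log2), and 35.1% of the other tested probe sets lay closer. Its SD over the arrays was 0.046, against 0.29 for 1433716_x_at. It varied too little for this distance to show whether the 2 probe sets disagree. The probe sets 1425578_a_at and 1425579_at were dim, at 2.39 to 2.53 on all arrays. The nearest members outside the floor were 1425578_a_at and the Gfra1 probe set 1450440_at, each with a mean log2 of 2.50, where 1423007_a_at had 4.03. The probe sets 1423007_a_at, 1425578_a_at and 1425579_at are those for which the annotation lists a transcript accession, while it lists none for the 2 brighter ones. The ending x_at marks a probe set whose probes may also match other transcripts, and both brighter Gfra2 probe sets carry it. The part of other transcripts in their values was not tested.

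**Figure D2:**
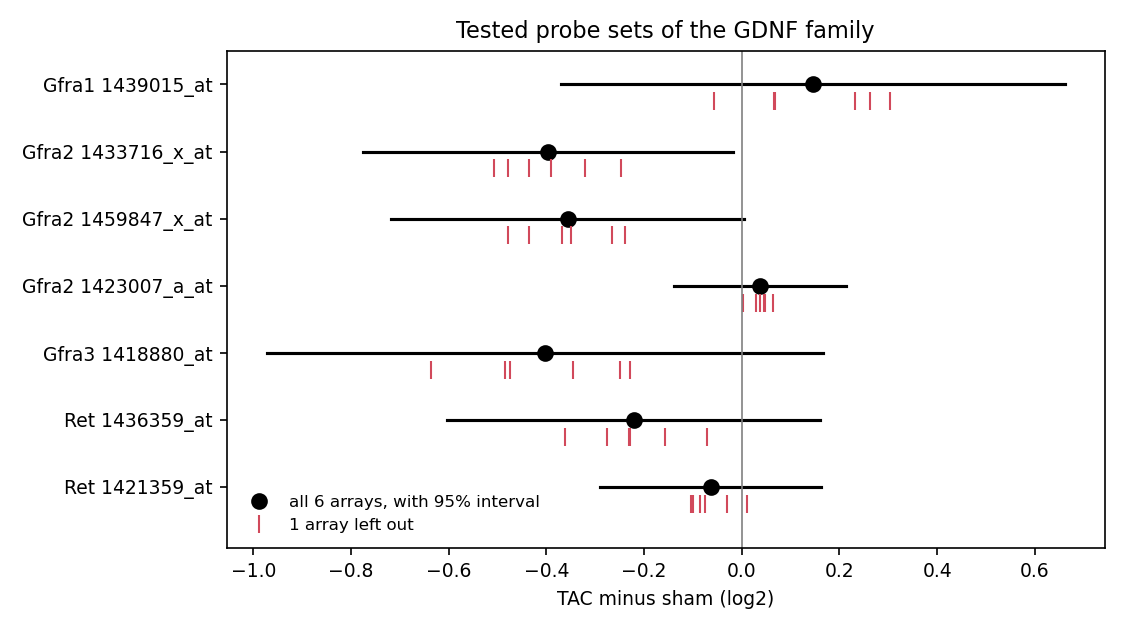
TAC minus sham difference (log2, x axis) of the 7 tested member probe sets, named on the y axis. Black points are the limma estimates from 3 TAC and 3 sham arrays, black lines their 95% intervals, and red ticks the estimates with 1 array left out; 1433716_x_at of Gfra2 alone has an interval that ends below 0, and the Gfra1 and the lower Ret probe set have ticks on both sides of 0.

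Gfra1 encodes the preferred co-receptor of GDNF, which can also signal without Ret through the adhesion molecule NCAM. It was measured by 1 of its 3 probe sets, 1439015_at, at 5.04, 5.67 and 5.10 on TAC A, B and C and 5.44, 4.96 and 4.97 on sham A, B and C. One array in each group stood above the others, TAC B and sham A, and the groups overlapped. The log2 difference was 0.15 (SE 0.21), with a 95% interval from -0.37 to 0.66 and a limma adjusted p of 0.824, and it turned to -0.056 without TAC B. The probe set 1450440_at was dim at 2.29, 3.09 and 2.31 on the TAC arrays and 2.33, 2.35 and 2.63 on the sham arrays, and it too was highest on TAC B. The third, 1421973_at, was dim at 2.13 to 2.19 on every array.

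Gfra3, the preferred co-receptor of artemin, is known from developing sympathetic neurons, from sensory neurons and from Schwann cells of peripheral nerve. Its single probe set, 1418880_at, lay near the floor and varied most among the tested members, over a range of 1.06. It measured 5.24, 4.43 and 4.66 on TAC A, B and C and 5.02, 5.04 and 5.49 on sham A, B and C. TAC B and TAC C were the lowest arrays, while TAC A was exceeded by sham C alone. The means were 4.78 ± 0.42 in TAC and 5.18 ± 0.27 in sham (SD, n = 3 each), and the log2 difference of -0.40 (SE 0.24) had a 95% interval from -0.97 to 0.17 and a limma adjusted p of 0.603. The difference was -0.64 without TAC A, -0.23 without TAC B, -0.25 without sham C and -0.076 without both sham C and TAC B. Sham C and TAC B were the arrays richest in fat transcripts. They were also the highest and the lowest array for Gfra3, so leaving out both had to shrink the difference. The part of fat in the Gfra3 value was not tested. TAC B and TAC C were also the arrays with the lowest mean of the 7 listed fibroblast markers, which was 9.223, 8.579 and 8.526 on TAC A, B and C and 9.003 to 9.045 on the sham arrays. The marker Dcn went the other way, at 12.46, 12.49 and 12.22 on the TAC arrays and 12.07 to 12.19 on the sham arrays, and the fibroblast mean was not higher on sham C, where Gfra3 was highest. The part of fibroblasts in the Gfra3 value was not tested.

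In a ganglion sampled whole, fewer cells of a type and less RNA per cell cannot be told apart. The array TAC B was the lowest of all 6 for 5 of the 7 tested member probe sets, both of Ret, the brighter pair of Gfra2 and that of Gfra3, and the highest for the other 2. Over all tested probe sets TAC B was the lowest array for 21.6% and the highest for 26.7%. It was the array with the lowest glial and, after sham C, the highest fat marker mean, and the part of either in these values was not tested. Of the markers of cholinergic sympathetic neurons, in which Ret and Gfra2 are known, Chat, Slc18a3, Slc5a7 and Hmx3 were dim, and 2 were tested. Vip measured 12.05 to 12.60 on the TAC arrays and 11.58 to 11.87 on the sham arrays (limma adjusted p = 0.516). Prima1 measured 6.74 to 7.20 on the TAC arrays and 6.70 to 6.86 on the sham arrays, with groups that overlapped (limma adjusted p = 0.583). For sensory neurons, another cell type with Ret and Gfra3, 1 of 8 listed markers was tested, Avil, at 11.97 to 12.16 in TAC and 12.06 to 12.17 in sham. Trpv1, Scn10a, Pou4f1 and Tac1 were dim, and Mrgprd, Prdm12 and Calca had no probe set with 1 symbol. With no other listed marker measured, Avil alone is not read as a sign of sensory neurons.

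The genes whose values most resembled those of a bright member over the 6 arrays were found by the smallest root mean square difference of centred log2 values. For Gfra2 1433716_x_at they were Sbk1 at 0.028, Fzd7 at 0.038 and Dsp at 0.044, where the probe set itself had an SD of 0.29 over the arrays. For Ret 1436359_at, with an SD of 0.23, they were Camk1d at 0.033, Npepps at 0.053 and Mon2 at 0.057. The ranking is over 6 arrays and 17549 other probe sets and is given as a description.

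The genes that surround Ret in the cell were taken from lists of 78 genes, of which 67 had a probe set with 1 symbol and 53 were tested, each by its brightest probe set. Their means were higher in TAC for 25 and lower for 28, with a median log2 difference of -0.014, where all 9955 tested genes had a median of 0.020. limma called 0 of the 53 at an adjusted p under 0.05, and 3 had an unadjusted p under 0.05, all higher in TAC, against 8.76% of all tested genes. The groups did not overlap for 10 of the 53, 5 in each direction, against 17.9% of all tested genes. With 1 array left out in turn, 20 of the 53 changed direction, among them Ncam1, Sdc3, Gas1, Lrig1, Cdh1, Cbl, Cblb, Nedd4, Spry2, Dusp6, Sox10, Hand2 and Isl1.

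Of the other ligands and co-receptors of the family, Pspn, the ligand persephin, was dim at 2.16 on each TAC array and 2.17 to 2.20 on the sham arrays. Its co-receptor gene Gfra4 measured 4.54, 4.59 and 4.56 on the TAC arrays and 4.84, 4.62 and 4.65 on the sham arrays. The genes Gdf15 and Gfral, a distant ligand and its co-receptor, were not analysed here. The Gfra4 groups did not overlap, with a log2 difference of -0.14 (SE 0.087, limma adjusted p = 0.624), or -0.069 without sham A. Gfra4 lay near the floor of 4, with a mean log2 of 4.634 over all arrays.

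Of 9 cell-surface partners all were tested, 3 with a higher and 6 with a lower mean in TAC, and none passed. Ncam1, the adhesion molecule that serves as the Ret-independent receptor, measured 11.52 to 11.80 in TAC and 11.57 to 11.84 in sham, a log2 difference of -0.043 (SE 0.12). Sdc3, a heparan sulfate proteoglycan that binds GDNF, differed by -0.089. Sorl1, a sorting receptor for GDNF and Gfra1, differed by -0.19 with groups that did not overlap, and by -0.072 without sham B. Gas1, a protein related to the co-receptors that dampens Ret signalling, differed by -0.018, and Lrig1, a membrane protein that restrains Ret, by -0.017. The integrin subunit Itgb1 was 0.21 higher with groups that did not overlap (limma adjusted p = 0.549), and 0.49 higher by a second tested probe set, whose groups did not overlap either (unadjusted p = 0.0187, limma adjusted p = 0.531). The mean of the cadherin Cdh1 was 0.28 higher, but -0.060 without sham B. The receptor kinase Fgfr1 was 0.25 higher by its brightest probe set, or 0.14 without sham B and 0.16 without TAC C, and 0.49 higher by a second, whose groups did not overlap (unadjusted p = 0.00136, limma adjusted p = 0.512).

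The largest difference among the surface partners was that of Ednrb, the endothelin receptor of neural crest cells and glia, which acts beside Ret in the formation of the enteric nervous system. It measured 9.41, 8.18 and 8.80 on TAC A, B and C and 9.69, 9.47 and 9.29 on sham A, B and C. The log2 difference was -0.69 (SE 0.30, limma adjusted p = 0.553), and -0.37 without TAC B, the lowest array. The groups overlapped through TAC A. A second tested Ednrb probe set differed by 0.0055, but it lay near the floor, with a mean log2 of 4.185 over all arrays. TAC B was also the array with the lowest glial marker mean, and the part of glia in the Ednrb value was not tested.

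Of the adaptors and signalling proteins that act below Ret, 18 of 29 were tested, 11 with a higher and 7 with a lower mean in TAC, with a median log2 difference of 0.064. The 3 genes at an unadjusted p under 0.05 belong here. Irs1, a docking protein best known from insulin signalling, measured 7.07, 6.91 and 6.87 on the TAC arrays and 6.69, 6.58 and 6.68 on the sham arrays. Its groups did not overlap, and the log2 difference was 0.30 (SE 0.087, unadjusted p = 0.0123, limma adjusted p = 0.516). Pik3r1, a regulatory subunit of phosphoinositide 3-kinase, measured 9.74, 9.56 and 9.60 on the TAC arrays and 9.47, 9.31 and 9.38 on the sham arrays. Its groups did not overlap either (log2 difference 0.25, SE 0.088, limma adjusted p = 0.542). Its 2 other tested probe sets were higher in TAC as well, by 0.25 and 0.31.

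Stat3, a transcription factor that Ret and cytokine receptors activate, measured 9.31, 9.50 and 9.39 on the TAC arrays and 9.04, 9.33 and 8.99 on the sham arrays. The groups overlapped through sham B, with a log2 difference of 0.28 (SE 0.11, limma adjusted p = 0.547). A second tested probe set of Stat3 differed by 0.22 with groups that did not overlap. Dim probe sets of Stat3 differed by -0.49 and 0.0069. The docking protein gene Frs2 was not analysed here. The gene of the kinase Akt1 differed by -0.18, that of the adaptor Grb2 by -0.12 and that of the Ret docking protein Shc1 by 0.11.

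The 9 genes of Ret turnover, among them the ubiquitin ligases that remove active Ret, had 8 tested members, of which 3 had a higher and 5 a lower TAC mean, around a median of -0.018. Cd2ap, an adaptor that links the ligase Cbl to endocytosis, measured 8.55, 9.08 and 8.67 on the TAC arrays and 8.44, 8.50 and 8.46 on the sham arrays. Its groups did not overlap, with TAC B highest and a log2 difference of 0.30 (SE 0.15, limma adjusted p = 0.563), which was 0.14 without TAC B. Cbl itself differed by -0.016, Cblb by -0.020 and the ligase Nedd4 by -0.057.

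Among genes known as targets or feedback regulators of Ret signalling 10 of 14 were tested, 5 higher and 5 lower, with a median of -0.080. Cxcr4, a chemokine receptor, measured 10.25, 9.25 and 10.22 on the TAC arrays and 10.70, 10.51 and 10.46 on the sham arrays. Each TAC array lay below each sham array, and the log2 difference was -0.65 (SE 0.28, limma adjusted p = 0.549), or -0.32 without TAC B. Spry4, a feedback inhibitor of receptor kinases, measured 9.50, 8.21 and 9.12 on the TAC arrays and 9.75, 9.52 and 9.31 on the sham arrays. The groups overlapped through TAC A. The difference of -0.58 (SE 0.33, limma adjusted p = 0.592) was -0.22 without TAC B. A second tested Spry4 probe set differed by -0.22 on all 6 arrays, with groups that overlapped. Of the other feedback genes, Etv5 differed by -0.30, the phosphatase Dusp6 by -0.21 (0.052 without TAC B) and Spry2 by 0.0040. Spry1 measured 6.499, 5.738 and 5.743 on the TAC arrays and 5.547, 5.719 and 5.643 on the sham arrays. The groups did not overlap, and the difference of 0.36 was 0.10 without TAC A, the high array.

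Transcription factors of Ret or of the neurons that carry it were tested for 7 of 13, 3 of them with a higher and 4 with a lower TAC mean (median -0.014). Insm1, a zinc finger factor of sympathoadrenal and endocrine progenitors, measured 5.33, 3.89 and 5.32 on the TAC arrays and 6.02, 5.86 and 5.50 on the sham arrays. Its groups did not overlap, and the log2 difference was -0.94 (SE 0.40, limma adjusted p = 0.549), or -0.46 without TAC B. The value on TAC B lay under the floor of 4, and with a pseudocount of 16 the difference was -0.64. The other Insm1 probe set was dim and differed by -0.070. The identity factors of sympathetic neurons differed by 0.054 for Phox2a, -0.020 for Hand2, -0.083 for Gata3 and -0.014 for Isl1. The glial factor Sox10, which also drives Ret in enteric progenitors, differed by 0.075.

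**Figure D3:**
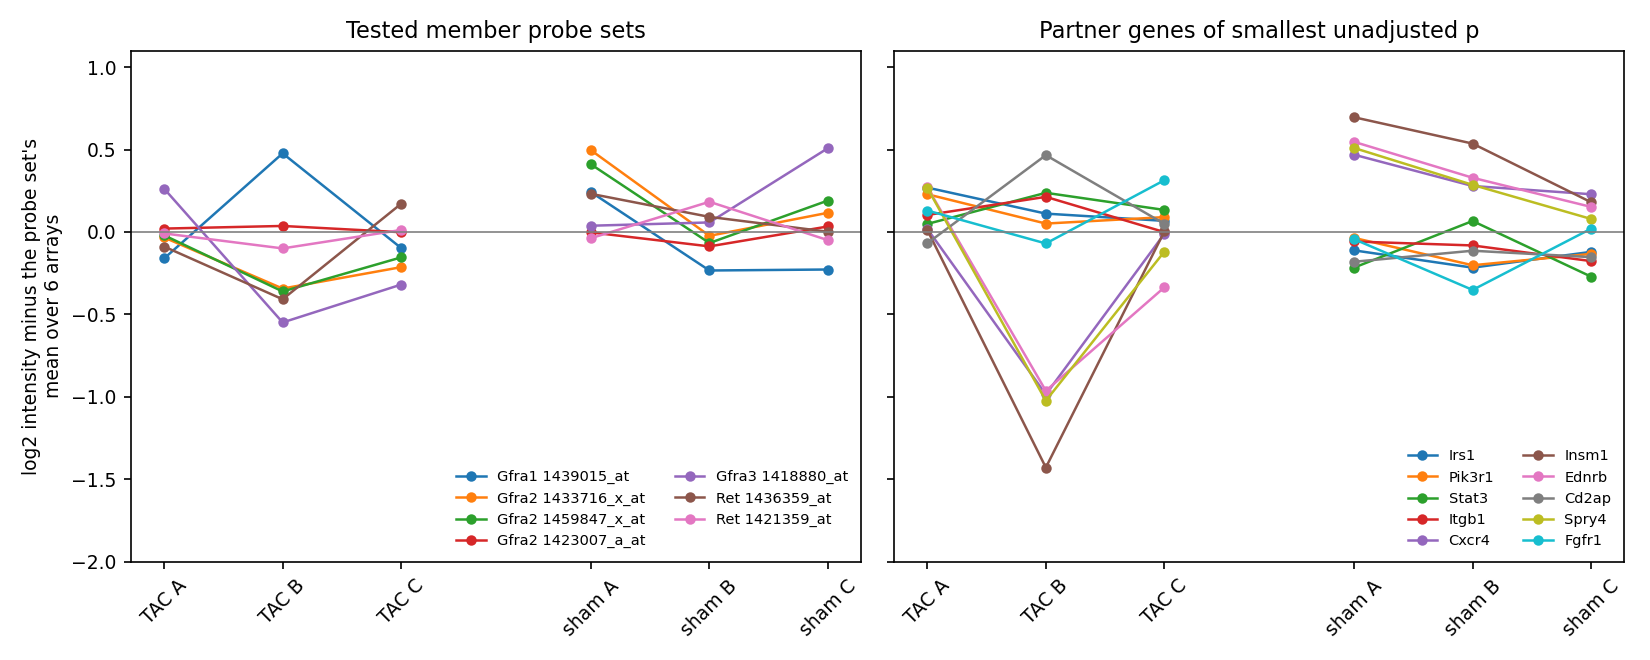
Log2 intensity minus the probe set's own mean over the 6 arrays, for the 7 tested member probe sets (left) and the 10 partner genes of smallest unadjusted p (right), TAC arrays left of sham arrays. Lines join the values of 1 probe set within a group and stand for no order; on TAC B, Ret 1436359_at lies at -0.41, Gfra3 at -0.55 and the brighter Gfra2 probe sets at -0.35 and -0.36, and Insm1, Cxcr4, Ednrb and Spry4 lie furthest below their means.

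**Figure D4:**
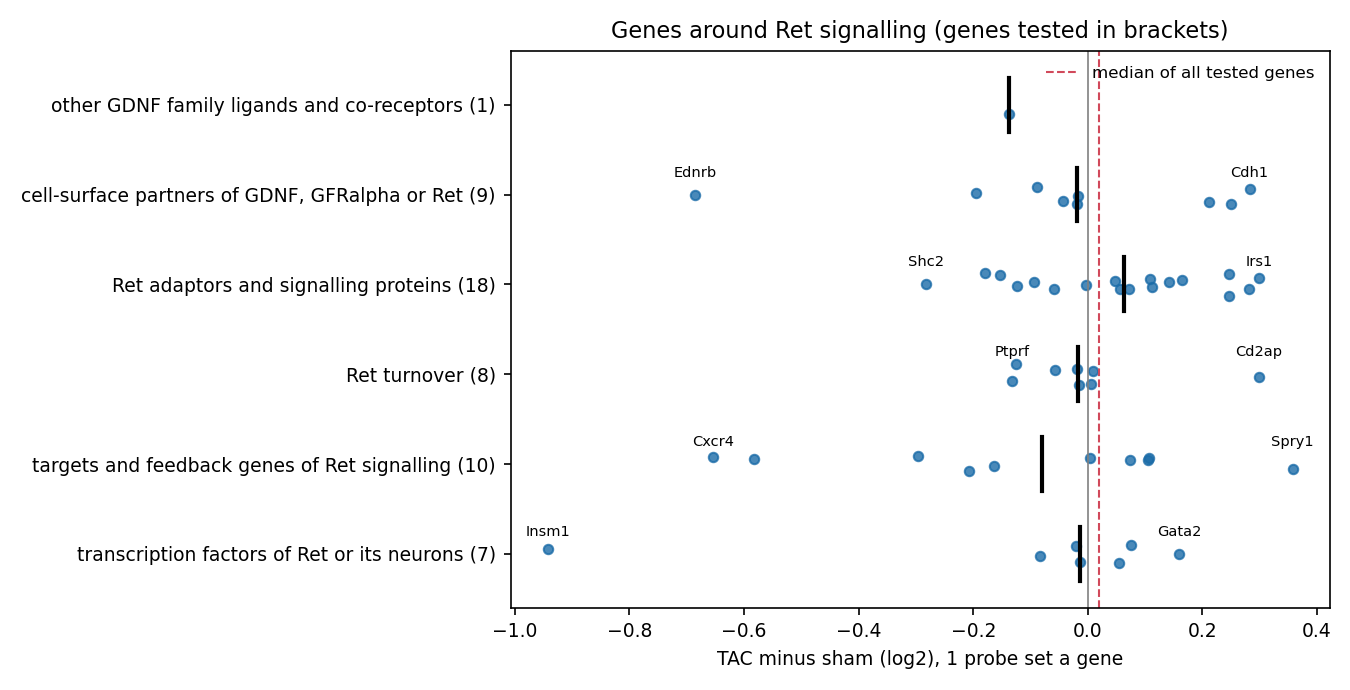
TAC minus sham difference (log2, x axis) of each tested gene in 6 lists around Ret, 1 point a gene, with the number of tested genes in brackets. Black bars are list medians, which lie between -0.14 and 0.064, the dashed line is the median of all tested genes at 0.020, and the genes at both ends of a list are named.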

How the data were processed

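The authors deposited probe set intensities on a linear scale, made with GCRMA per the submitters' processing notes. GCRMA is a method that models probe background from base composition; no version or setting of it is given in the sources used. The values were log2-transformed with no pseudocount. Of 45101 probe sets, 34958 had 1 symbol in GEO's platform annotation, 932 several and 9211 none. Probe sets with a mean log2 under 4 (27487) and 64 controls were not tested; dim members took their differences from a fit with no floor. TAC and sham were compared over all 17550 remaining probe sets with limma 3.58.1 (R 4.3.3; lmFit, eBayes, two-sided, Benjamini-Hochberg, threshold 0.05). For lists of genes, the probe set with the highest mean stood for a gene. The letters are not said to mark a shared litter, batch or day, so no block was used. Over the tested probe sets, arrays sharing a letter did not deviate together (r = 0.084, -0.003 and -0.166 for A, B and C). No sequence or coordinate was used here. The fit was run on simulated data with planted differences and independent noise in each probe set. That simulation held no deviations shared across an array, so it does not speak to them. Precision is limited by having 3 arrays a group.

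The members, the lists and the choice to leave out sham C with TAC B were made with earlier results of these data known. Genes named were all members, the 10 tested list genes of smallest unadjusted p, the family and surface lists, and the 3 genes most like each bright member; others named in the lists, and second probe sets, were chosen after their values were seen. Alternatives covered the floor, a pseudocount, normalization, the variance model, array weights, the letter as a block, the mean of a gene's probe sets and each array left out. Leaving out each array for every list gene was added after seeing the data.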

Additional observations from a re-analysis of the deposited data

How the results depend on the processing

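No member passed the adjusted threshold under any alternative, and of 24 member probe sets and partner genes 17 kept the direction of their difference throughout. The 24 include the 10 list genes of smallest unadjusted p, which were picked for their differences, and each of these kept its direction. The 17 are therefore not read as a measure of stability. With 1 array left out in turn, 20 of the 53 tested list genes changed direction. What causes the differences between settings was not tested. Members at an unadjusted p under 0.05 numbered 1 as reported, 0 with no floor and without sham C and TAC B, 2 with a floor of 6, a pseudocount of 16, quantile normalization, array weights and the replicate block, and 0 to 3 with 1 array left out. They were 0 without TAC B, sham A or sham C, 2 without sham B and 3 without TAC A. The share of all tested probe sets is given for the main fit alone, at 9.08%. The counts under the alternatives are therefore not read as a result about the members. The block changed no adjusted call, and 1 of 6 arrays correlated best with its own letter. With the block, limma gave unadjusted p of 0.0108 for Gfra2 1433716_x_at and 0.012 for 1459847_x_at. The adjusted p was 0.60 for each. Probe sets called over the whole array numbered 0 to 1 with 1 array left out, the 1 without TAC C. Gfra1 was at -0.13 without sham C and TAC B, and at -0.056 to 0.30 with 1 array left out. With 1 array left out Ret 1421359_at ran from -0.10 to 0.012, Ncam1 from -0.13 to 0.046, Sdc3 from -0.20 to 0.015, Gas1 from -0.038 to 0.0052, Lrig1 from -0.15 to 0.099 and Cdh1 from -0.060 to 0.56; Ncam1 was at 0.080 without sham C and TAC B. The mean of all tested probe sets gave -0.24 for Gfra2 and -0.14 for Ret. Array weights, which gave TAC B 0.444, brought Ret 1436359_at to -0.059. Of the list medians, the following moved by more than the spread of their arrays. Quantile normalization gave -0.087 for surface partners and -0.062 for turnover. Leaving out sham C and TAC B gave 0.039 for turnover and 0.043 for all lists. The fit with no floor gave -0.014 for adaptors, where 6 dim genes, all with a lower TAC mean, joined the 18 tested ones. With 1 array left out the median of all lists ran from -0.029 to 0.035, the last without TAC B. With 3 arrays a group, and with Gfra3, Gfra4 and 1423007_a_at near the floor of 4, small differences could not be resolved.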
